A study of Rattus norvegicus with 6 samples.

Results

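CC chemokines were followed at the transcript level in 6 mammary tumors of Fischer 344 (F344) rats, an inbred strain. The genes were the rows of the deposited read count table named Ccl2, Ccl3, Ccl4, Ccl5, Ccl6, Ccl7, Ccl11, Ccl19, Ccl20 and Ccl28, which makes 10 of the 30562 rows, and each symbol named exactly 1 row. The older group held tumors 102, 107 and 116 from rats aged 21 to 23 months at the single gavage of the carcinogen DMBA (65 mg per kg). The younger group held tumors 157, 158 and 167 from rats dosed at 4 months. All rats were females (the younger ones described as virgin). Each had an implanted pellet of the progestin MPA (50 mg, released over 90 days), so carcinogen dose and pellet were shared. The paper reports lower circulating estradiol in the older rats at euthanasia, so hormone state and age cannot be told apart either. The younger animals came from a commercial supplier and the older ones from an institutional aging colony, so supplier and age cannot be told apart. The younger group held every tumor that formed in young rats, whereas the older tumors were those with adequate tissue. The study measured chemokines in the blood of these rats, and the comparison here asks how their transcripts stood in the tumors themselves.

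Chemokines are small secreted proteins that guide leukocytes along concentration gradients through G-protein-coupled receptors, and the CC family is named for a pair of adjacent cysteines. Inflammatory members such as CCL2, CCL3, CCL4 and CCL5 are induced in macrophages, lymphocytes and stroma and recruit monocytes and T cells, whereas CCL19 is a homeostatic ligand of lymphoid tissue and CCL28 is made by mucosal and mammary epithelium. In breast tumors CCL2 and CCL5 are best known as attractants of monocytes that become tumor-associated macrophages.

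The totals ran from 3508571 to 6525830 counts per tumor, and 3 counts, taken as the floor, corresponded to 0.518 to 0.995 CPM (read counts scaled to a common library total, here with TMM factors of 0.865 to 1.125). Such limits cover counting error only. Tumor 102, from an older rat, stood apart, since its log2 CPM correlated with those of the other libraries at a mean r of 0.83, while each of the others reached 0.869 to 0.9 (across genes, which are not replicates). The epithelial marker Epcam was present in all tumors at 291 to 482 CPM and the milk protein gene Csn2 at 576 to 107258 CPM. No transcript lengths were used, so values of different genes do not rank their transcript levels, and sums over markers and ratios to them weight each gene by its reads.

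Most of the 10 members lie in a pair of clusters on rat chromosome 10. In gene order the first holds Ccl2, Ccl7, Ccl11, Ccl12 and Ccl1 as direct neighbors, and the other holds Ccl5, Ccl9, Ccl6, Ccl3 and Ccl4 (RefSeq order of coding genes, assembly GRCr8). Ccl28, Ccl19 and Ccl20 lie on chromosomes 2, 5 and 9. Start-site windows of 150 bases, from 100 bases before the annotated start, were found in RefSeq for 5 of the 10 genes, and 1 gene of each cluster and the epithelial ligand are shown so that each of these positions has an example. Capitals mark TATAAA, the core of the TATA box, and a match to the NF-kB consensus. Both strands were searched.
Ccl6 (GRCr8, chr10:68883317-68883466, minus strand): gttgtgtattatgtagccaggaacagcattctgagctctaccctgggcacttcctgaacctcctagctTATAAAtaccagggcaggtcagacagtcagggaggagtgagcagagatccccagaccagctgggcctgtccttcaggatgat
Ccl7 (GRCr8, chr10:67513995-67514144, plus strand): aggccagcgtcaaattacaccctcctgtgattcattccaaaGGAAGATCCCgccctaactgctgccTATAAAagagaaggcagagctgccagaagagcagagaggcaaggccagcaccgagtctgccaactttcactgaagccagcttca
Ccl28 (GRCr8, chr2:53333971-53334120, plus strand): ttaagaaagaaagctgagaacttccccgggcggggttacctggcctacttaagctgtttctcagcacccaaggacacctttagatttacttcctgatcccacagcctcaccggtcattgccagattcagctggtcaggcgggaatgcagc
TATAAA began 32 bases before the start of Ccl6 and 34 before that of Ccl7, and these letters were not in the Ccl28 window. It was found in 7.27% of all 33469 windows of this length. The NF-kB consensus, in 3.76% of all windows, was matched on the opposite strand of Ccl7, beginning 59 bases before the start, and of Ccl20, at 89 bases. These matches are a description of letters and not of binding.

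Against this arrangement, the chemokines of the second cluster were higher in every tumor from older rats than in any tumor from younger rats. The first cluster was mixed. Ccl2 and Ccl7 had lower means in older tumors and overlapped. Ccl11, Ccl12 and Ccl1 had higher means in older tumors, overlapped as well and had too few counts for the test. Ccl1 had 0, 5 and 0 counts in older tumors 102, 107 and 116 and 0, 1 and 0 in younger tumors 157, 158 and 167. No member passed an adjusted p of 0.05 in edgeR's quasi-likelihood test, and neither did any other gene (0% of the 14060 genes tested). At an unadjusted p under 0.05, 4 of the 10 members were higher in older tumors and 0 were lower, where 5.28% and 3.27% of all genes tested were. The same 4, Ccl3, Ccl4, Ccl5 and Ccl6, had groups that did not overlap, where 6.57% of all genes were higher without overlap and 5.58% lower. Only 6 of the 10 members had enough counts for this test, and Ccl3 and Ccl4 met that filter through the older tumors alone, which had at least 2.14 CPM before scaling in all 3 while no younger tumor did. A filter of this kind favors genes that differ, so the share among tested members carries no weight of its own.

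**Figure D1:**
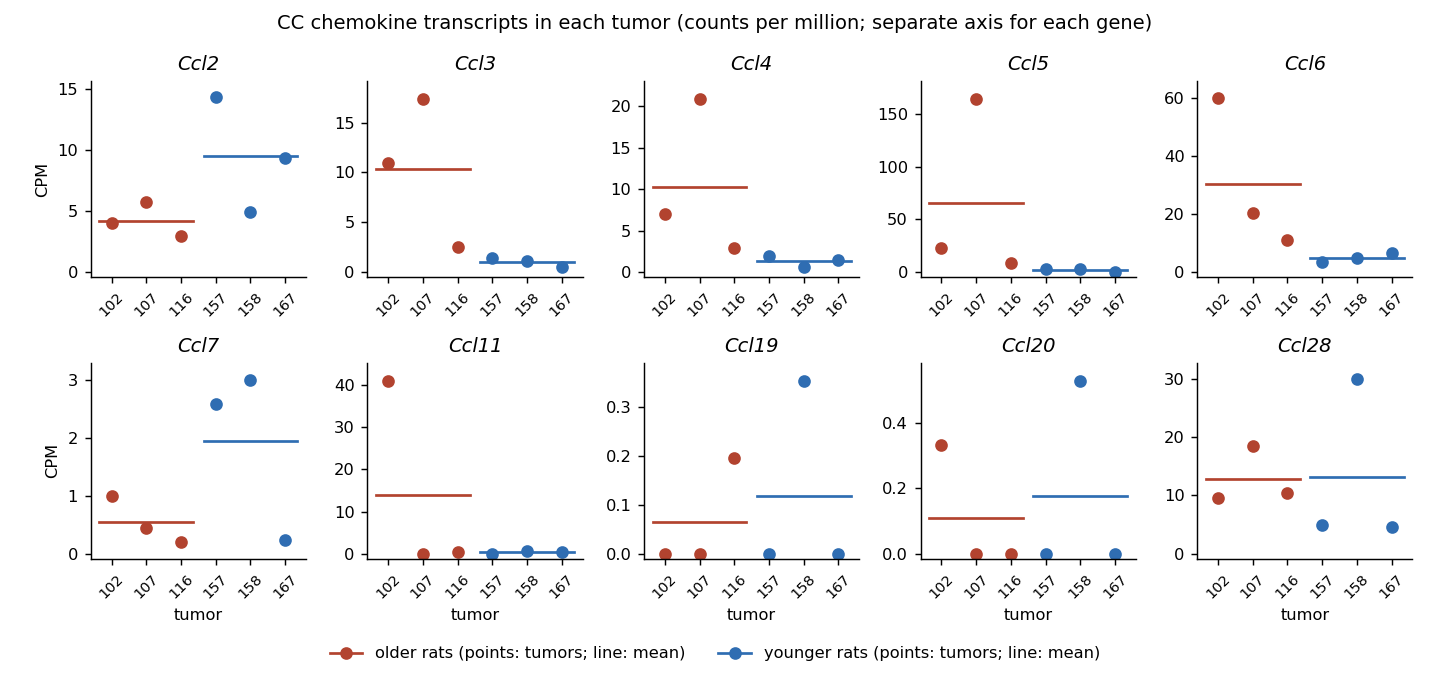
CPM of each CC chemokine in each tumor, with the tumor number on the horizontal axis, red points for older rats, blue points for younger rats, a line at each group mean and a separate vertical axis from 0 for each gene. For Ccl3, Ccl4, Ccl5 and Ccl6 the 3 red points lie above the 3 blue ones, whereas Ccl11 is high in tumor 102 alone and Ccl28 is highest in younger tumor 158.

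Ccl3 and Ccl4 encode macrophage inflammatory proteins that attract monocytes and T cells, and CCL3 is a ligand of CCR1. Ccl3 stood at 10.9, 17.4 and 2.53 CPM in older tumors 102, 107 and 116 and at 1.38, 1.06 and 0.477 CPM in younger tumors 157, 158 and 167. The groups did not overlap, but older tumor 116 was nearer to the younger tumors than to tumor 107, and the younger values rest on 8, 6 and 2 counts. The means were 10.3 ± 7.47 and 0.974 ± 0.459 CPM (SD, n = 3 each), a log2 fold change of 3.33 (SE 0.79, adjusted p = 0.308, edgeR). Ccl4, the next gene along the chromosome, stood at 6.96, 21.0 and 2.92 CPM in older tumors and at 1.90, 0.531 and 1.43 CPM in younger ones. The order of the older tumors was the same as for Ccl3, with 107 highest and 116 lowest. The log2 fold change of Ccl4 was 2.98 (SE 0.84, adjusted p = 0.343, edgeR), and it was 1.90 without tumor 107, which thus carried much of its size.

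Ccl5, known as RANTES and made in quantity by activated T cells and natural killer (NK) cells, had the largest difference of means in CPM among the 6 tested members, and the largest SD. It stood at 22.5, 165 and 8.76 CPM in older tumors 102, 107 and 116 and at 2.25, 3.01 and 0.239 CPM in younger tumors 157, 158 and 167. Tumor 107 alone held 746 counts, the other older tumors held 68 and 45, and the younger tumors 13, 17 and 1. The means were 65.3 ± 86.2 and 1.83 ± 1.43 CPM (SD, n = 3 each), with a log2 fold change of 5.09 (SE 1.25, adjusted p = 0.314, edgeR). Without tumor 107 the log2 fold change was 3.02 (SE 0.85, adjusted p = 0.451, edgeR), so the direction did not depend on that tumor while the size did.

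Ccl6, a rodent chemokine of myeloid cells with CCR1 as receptor, was highest in a different tumor. It stood at 60.0, 20.5 and 10.9 CPM in older tumors 102, 107 and 116 and at 3.28, 4.78 and 6.45 CPM in younger tumors 157, 158 and 167. All 6 tumors had at least 19 counts, so that its values are less limited by depth than those of Ccl3 and Ccl4. The log2 fold change was 2.65 (SE 0.66, adjusted p = 0.316, edgeR). Tumor 102, which stands apart from the other libraries, set its size, since without that tumor the log2 fold change was 1.70 (SE 0.47, adjusted p = 0.438, edgeR). Without tumor 102 the values of Ccl3, Ccl4 and Ccl5 were 3.28, 3.18 and 5.47. Ccl9, the gene between Ccl5 and Ccl6 and no member of the list, had 26, 9 and 14 counts in older tumors and 0, 1 and 0 in younger ones, too few for the test.

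Ccl2 encodes the main monocyte attractant, acting through CCR2, and had the opposite sign. It stood at 3.98, 5.74 and 2.92 CPM in older tumors 102, 107 and 116 and at 14.3, 4.95 and 9.31 CPM in younger tumors 157, 158 and 167. The groups overlapped, since older tumor 107 lay above younger tumor 158. The means were 4.21 ± 1.42 and 9.54 ± 4.70 CPM (SD, n = 3 each), a log2 fold change of -1.18 (SE 0.52, unadjusted p = 0.0546, adjusted p = 0.601, edgeR). It was -0.76 without younger tumor 157, where the gene was highest. Ccl7, its neighbor and a further CCR2 ligand, had 3, 2 and 1 counts in older tumors and 15, 17 and 1 in younger ones, so that its level was at or under the floor in 4 of the 6 tumors and was too low for the test.

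**Figure D2:**
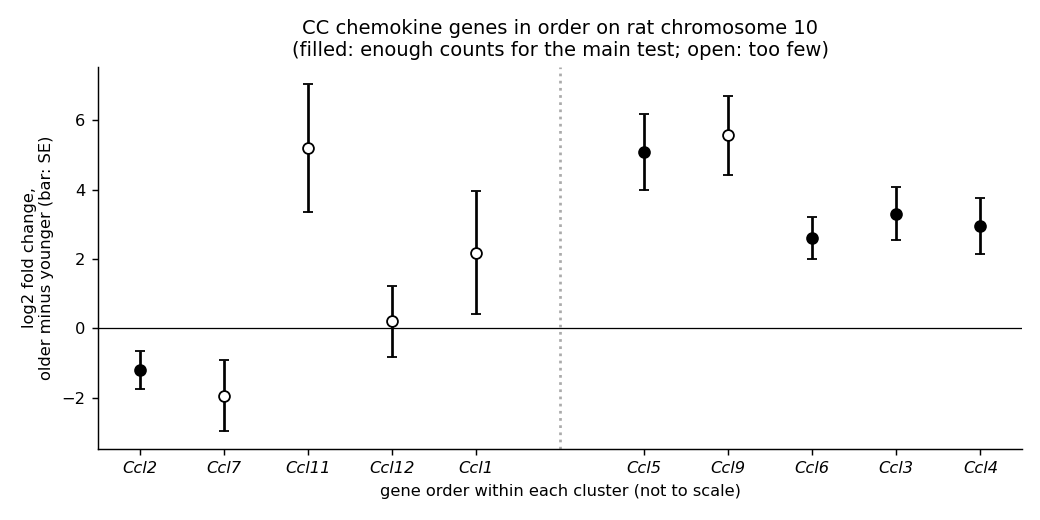
Log2 fold change (older minus younger, bars are SE) of the CC chemokine genes in their order along the 2 clusters of rat chromosome 10, from an edgeR fit on all genes with at least 1 count, with distances not to scale. The 5 genes on the right lie above 0. On the left, Ccl2 and Ccl7 lie below 0 and Ccl11, Ccl12 and Ccl1 above it. Open points had too few counts for the main test, Ccl11 rests on tumor 102 and Ccl9 on 1 count in the younger group.

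Ccl11 encodes eotaxin, which attracts eosinophils through CCR3. It had 124 counts (41.1 CPM) in older tumor 102, 0 and 2 in older tumors 107 and 116, and 0, 3 and 2 in younger tumors 157, 158 and 167. The transcript was thus above the floor in 1 tumor only, and its presence there is a measurement of a single library with no replicate. The receptor gene Ccr3 followed the same pattern, with 69 counts (22.9 CPM) in tumor 102, 0 and 2 in the other older tumors and 0 in every younger tumor, which allows up to 0.518 to 0.716 CPM. Il5ra, the interleukin 5 receptor of eosinophils, had 10 counts in tumor 102 and 0 in the others. The granule protein gene Prg2 was at 0 in all tumors and the eosinophil peroxidase gene Epx had 1 count in tumor 102 and 1 to 6 in the others, around the floor, so these defining markers were too low to show a difference.

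Ccl28 encodes an epithelial chemokine that attracts plasma cells to mucosa and mammary gland through CCR10. It stood at 9.62, 18.5 and 10.3 CPM in older tumors 102, 107 and 116 and at 4.84, 29.9 and 4.54 CPM in younger tumors 157, 158 and 167. Both the highest and the lowest value belonged to younger tumors, so the older values lay inside the younger range. The log2 fold change was -0.03 (SE 0.75, adjusted p = 0.995, edgeR), an error wide enough to leave differences of over 2-fold in either direction undetected. Without younger tumor 158 it was 1.45 (SE 0.50, adjusted p = 0.460, edgeR), and its sign changed with the scaling as well. Ccl19, a CCR7 ligand of lymphoid stroma, had 0 to 2 counts per tumor, and Ccl20, a CCR6 ligand of epithelium, 0 to 3, so neither was above the floor in any tumor.

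**Figure D3:**
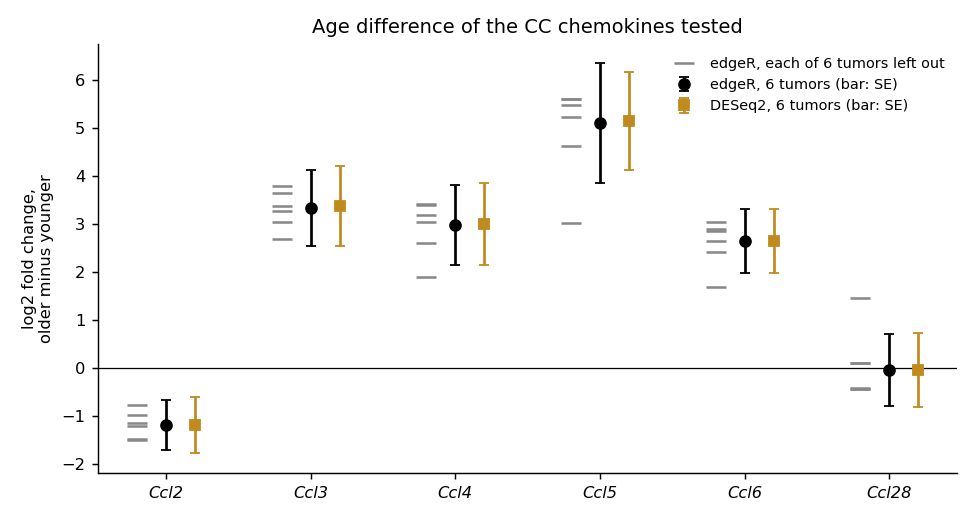
Log2 fold change of the 6 members with enough counts, older minus younger, from edgeR (black, bar is SE), from edgeR with each tumor left out (gray marks) and from DESeq2 (yellow, bar is SE). Ccl3, Ccl4, Ccl5 and Ccl6 stay above 0 and Ccl2 below 0 in every fit, the lowest mark of Ccl5 (3.02) is the fit without tumor 107, and Ccl28 lies on both sides.

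Whether these members were called differed between the tests. DESeq2's Wald test, the tool the study names, gave adjusted p-values of 0.00561 for Ccl3, 0.0255 for Ccl4, 0.000138 for Ccl5 and 0.00658 for Ccl6, all higher in older tumors, and 0.469 for Ccl2. It called 1.65% of 14022 genes higher and 0.813% lower in older tumors. Its log2 fold changes lay close to those of edgeR, for example 3.37 against 3.33 for Ccl3 and 5.13 against 5.09 for Ccl5. limma-voom called 0 members.

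Among the other 10 CC ligands listed, 8 had any count and only Ccl27, a skin chemokine, had enough for the test (log2 fold change -0.61, SE 0.79, adjusted p = 0.916, edgeR). The T cell attractant Ccl22, which binds CCR4, had 7, 43 and 7 counts in older tumors and 2, 1 and 5 in younger ones, and was highest in tumor 107 as Ccl3, Ccl4 and Ccl5 were. Ccl24, a further eotaxin, had 1, 6 and 3 counts in older tumors and 1, 0 and 0 in younger ones. In CPM both lay higher in all older tumors, at levels where a few reads set the order. Ccl12, a CCR2 ligand in the first cluster, had 0 to 10 counts and overlapped between the groups.

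Of the listed receptors, 8 genes were examined (Ccr1 was not analysed here), and 3 had enough counts for the test. Ccr2, the receptor of CCL2, stood at 8.29, 5.29 and 7.0 CPM in older tumors 102, 107 and 116 and at 5.18, 3.01 and 1.91 CPM in younger ones. Its mean was therefore higher in older tumors while that of its ligand was lower (log2 fold change of Ccr2 1.0, SE 0.49, adjusted p = 0.661, edgeR). Ccr7 had a log2 fold change of 0.69 (SE 0.90, adjusted p = 0.916, edgeR). Ccr6, the receptor of CCL20, had 2, 22 and 4 counts in older tumors and 1, 0 and 1 in younger ones, and Ccr10 had 5 to 12 counts with overlap, both too few for the test. The gut-homing receptor gene Ccr9 was at 17.5 to 41.4 CPM in the 6 tumors with a log2 fold change of 0.06 (SE 0.38, adjusted p = 0.986, edgeR).

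**Figure D4:**
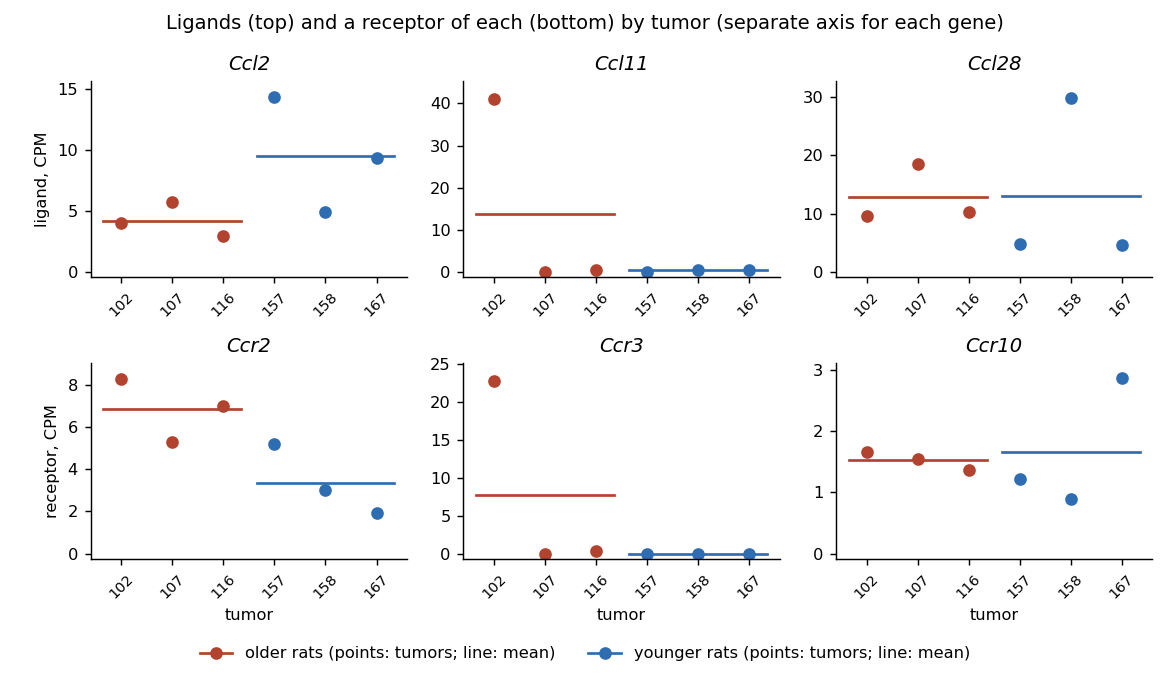
CPM of 3 ligands (top) and of a receptor of each (bottom) in each tumor, red for older and blue for younger rats, with a line at each group mean and a separate axis from 0 for each gene. Ccl11 and Ccr3 are both high in tumor 102 alone. Ccr2 is higher in older tumors, where Ccl2 has the lower mean, by a narrow margin (5.29 CPM in older tumor 107, 5.18 CPM in younger tumor 157).

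Atypical receptors bind chemokines without G-protein signaling and remove or transport them. Ackr4, a scavenger of CCL19, stood at 13.3, 1.99 and 18.7 CPM in older tumors and at 2.94, 1.59 and 3.10 CPM in younger ones, overlapping through tumor 107 (log2 fold change 2.15, SE 0.77, adjusted p = 0.475, edgeR). Ackr3 overlapped widely at a log2 fold change of -0.16 (SE 0.93, adjusted p = 0.983, edgeR). Ackr1, a chemokine carrier of venules and red cells, had 24, 4 and 3 counts in older tumors and 1, 0 and 0 in younger ones. Ccrl2 had 17, 8 and 10 counts in older tumors and 7, 6 and 4 in younger ones, which in CPM did not overlap.

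Inflammatory chemokines are classical targets of NF-kB, and of the 11 tested genes in the list of inducing cytokines and NF-kB response 5 were higher and 0 lower in older tumors at an unadjusted p under 0.05 (5.28% and 3.27% of all genes). After adjustment 0 passed in edgeR and 2 in DESeq2 (1.65% of all genes higher). Nfkbia, the NF-kB inhibitor that NF-kB itself induces, stood at 500, 72.8 and 152 CPM in older tumors 102, 107 and 116 and at 43.2 to 69.5 CPM in younger ones. Tnfaip3, a feedback inhibitor of the same pathway, stood at 163, 40.8 and 141 CPM in older tumors and at 17.4 to 34.7 CPM in younger ones (log2 fold change 2.16, SE 0.53, adjusted p = 0.314, edgeR). For both genes tumor 107, which had the most Ccl3, Ccl4 and Ccl5, was the lowest of the older tumors. The adhesion molecule Vcam1 (3.60, SE 0.80) and the macrophage growth factor Csf1 (1.10, SE 0.30) also had positive log2 fold changes without overlap between the groups, and Relb, an NF-kB subunit, reached the unadjusted level with overlap (0.88, SE 0.38). Tnf and Il1b, the cytokines that induce many chemokines, overlapped between the groups with log2 fold changes of 0.31 (SE 0.83) and 0.28 (SE 1.17).

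Of the 9 tested genes for receptor signaling and leukocyte adhesion, 7 were higher and 0 lower in older tumors at an unadjusted p under 0.05, beside the same 5.28% and 3.27% of all genes. They were the integrin genes Itgal, Itgam and Itgb2, the migration genes Dock2, Rac2 and Coro1a, and the arrestin gene Arrb1. Their log2 fold changes ran from 1.03 (Arrb1) to 2.62 (Itgam). After adjustment 0 passed in edgeR and 4 in DESeq2, which called 1.65% of all genes higher in older tumors. Itgal, the integrin chain of lymphocytes, was at 123 CPM in tumor 107 and at 10.5 to 32.3 CPM in the others. Gnai2 and Arrb2, which most cells express, had log2 fold changes of -0.05 and -0.09.

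Summed levels of marker genes were higher in all older tumors for macrophages, cytotoxic cells, T cells and dendritic cells, the leukocytes that make or answer to these ligands, while 0 of these genes passed the adjusted threshold in edgeR. DESeq2 called 1 macrophage, 3 cytotoxic, 1 T cell and 2 dendritic cell markers higher in older tumors, where it called 1.65% of all genes. It gave no p-value for the cytotoxic gene Gzmb or the macrophage gene Cd163. In bulk tissue fewer cells of a type and less RNA per cell cannot be told apart. The summed level of 12 macrophage markers was 788 to 1367 CPM in older tumors and 215 to 629 CPM in younger ones. Of the 11 tested, 5 were higher and 0 lower at an unadjusted p under 0.05 (5.28% and 3.27% of all genes), and Marco was at 0 in all tumors. The summed level of 8 cytotoxic and NK cell markers was 645 CPM in tumor 107, 56.4 and 22.6 CPM in tumors 102 and 116 and 7.40 to 11.8 CPM in younger tumors. All 5 tested were higher in older tumors at an unadjusted p under 0.05, beside 5.28% of all genes. Klrb1, Ncr1 and Eomes did not meet the filter for the test, which favors genes that differ. Tumor 107 held the highest value of Ccl5 and of the cytotoxic and NK cell markers, among them Gzmb at 201 CPM, Prf1 at 183 CPM and Nkg7 at 119 CPM in that tumor. Of 8 T cell markers with a row, 3 were tested, and their summed level was 24.2 to 143 CPM in older and 11.7 to 18.5 CPM in younger tumors. Cd3d had 0 to 7 counts per tumor. Dendritic cell markers summed to 28.0 to 105 CPM in older and 15.2 to 21.8 CPM in younger tumors. The part of these cell types in the chemokine differences was not tested, and the ratios that follow are a description.

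The members' counts were also set per 1000 summed marker counts of the same library, a measure chosen after the values were seen. Both sums were higher on average in older tumors, so the division lowers the older values of every ligand relative to the younger ones. Per 1000 counts of the 12 macrophage markers, Ccl2 stood at 4.33, 4.19 and 3.70 in older tumors and at 34.6, 7.87 and 43.2 in younger ones, without overlap, which this denominator produced, since in CPM the groups overlapped. Ccl5 stood at 24.5, 120 and 11.1 in older tumors and at 5.42, 4.78 and 1.11 in younger ones, still without overlap. Ccl3 (3.21 to 12.7 in older and 1.69 to 3.33 in younger tumors), Ccl4 (3.70 to 15.3 and 0.844 to 6.65) and Ccl6 (13.8 to 65.3 and 7.59 to 29.9) overlapped on this scale. Cd14 and Lyz2 held most of the marker counts in every tumor but younger tumor 167, where 488 of 902 counts were left without them. With both left out of the sum, Ccl3 did not overlap (10.3 to 40.7 in older and 4.10 to 7.73 in younger tumors), and Ccl4 and Ccl6 still did. Per 1000 counts of the cytotoxic and NK cell markers, Ccl5 stood at 400.0, 255 and 388 in older tumors and at 191, 354 and 32.3 in younger ones, and the groups overlapped. Tumor 107 was no longer the highest, but this marker sum, like Ccl5, peaked there (2922 counts), so the division lowers that tumor by construction. The sum held 68, 48 and 31 counts in younger tumors 157, 158 and 167, so their ratios rest on few counts. Ccl3, Ccl4 and Ccl6 overlapped per cytotoxic marker count as well. With 3 tumors in each group an exact permutation test of such a ratio cannot give a two-sided p below 0.1, and none was made.

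**Figure D5:**
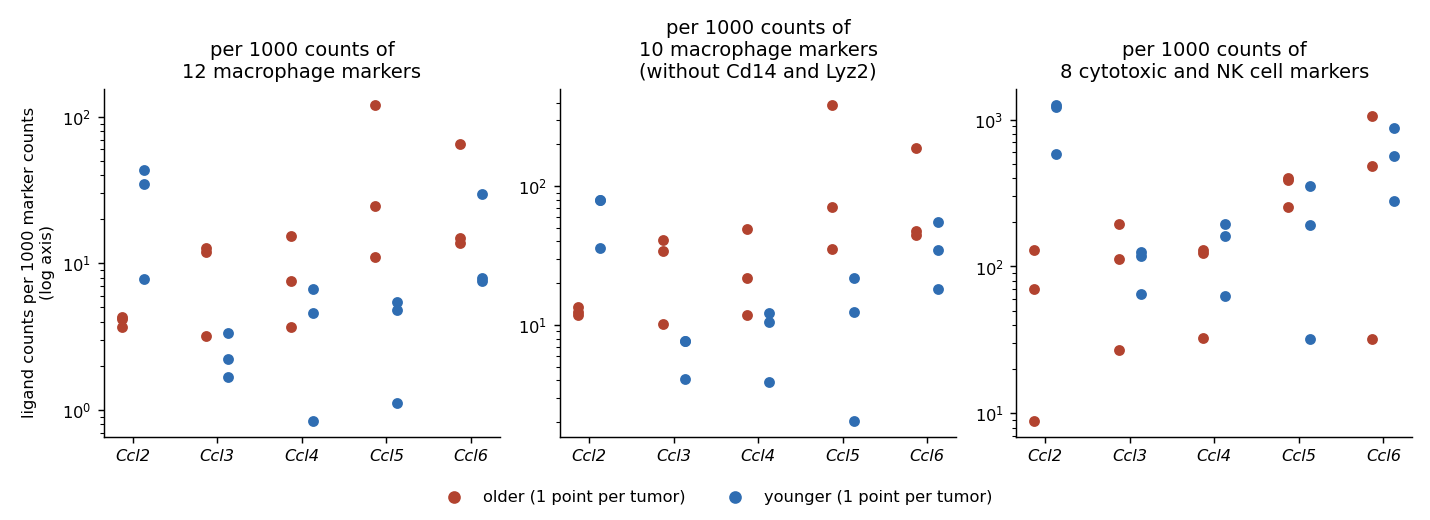
Counts of 5 chemokines per 1000 summed counts of macrophage markers (left), of macrophage markers without Cd14 and Lyz2 (middle) and of cytotoxic and NK cell markers (right), on log axes with 1 point per tumor, red for older and blue for younger rats. Ccl2 is lower in all older tumors in each panel, and Ccl5 is higher in all older tumors in the left and middle panels but overlaps in the right one; the marker sums are themselves higher on average in older tumors, which lowers every older ratio.

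Markers of other cells were examined in the same way. Mast cell and eosinophil markers summed to 252 to 290 CPM in older and 68.1 to 172 CPM in younger tumors, and Kit, which mammary epithelium expresses too, gave 167 to 287 CPM of this in older and 35.9 to 113 CPM in younger tumors. In younger tumor 167 the mast cell gene Cpa3, at 73.3 CPM, exceeded Kit at 49.4 CPM in reads. The mast cell genes Cpa3, Ms4a2, Tpsab1 and Tpsb2 overlapped between the groups. Of the 5 genes tested 1, Kit, was higher at an unadjusted p under 0.05 in edgeR (5.28% of all genes were). Neutrophil markers summed to 26.1 to 54.7 CPM in older and 32.5 to 41.1 CPM in younger tumors, of which Ly6g6e gave 22.8 to 53.4 CPM over the 6 tumors. The remaining genes of that list were mostly low, such as S100a8 with 0 to 11 counts and Elane with 0 in all but 1 tumor. Cxcr2 had 38 counts in younger tumor 158 and Csf3r 20 in younger tumor 157. The sum rests on Ly6g6e and says little of neutrophils. B and plasma cell markers summed to 5.07 to 21.8 CPM in older and 3.80 to 4.77 CPM in younger tumors, with Ms4a1 and Cd79b at 0 throughout. The plasma cell gene Jchain stood at 11.6, 3.75 and 20.4 CPM in older and 0.691, 3.01 and 0.477 CPM in younger tumors (log2 fold change 3.05, SE 0.86, adjusted p = 0.343 in edgeR and 0.0224 in DESeq2). The B cell gene Cd79a, too low for the test, had 0, 3 and 4 counts in older and 7, 6 and 5 in younger tumors, so these genes lay in opposite directions. Lymph node stroma and follicle markers summed to 8.76 to 27.2 CPM in older and 3.34 to 15.2 CPM in younger tumors, with Cr2 at 0 in 5 tumors and Ccl21 with 1 count over all tumors.

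Few genes of the stromal and epithelial lists reached an unadjusted p under 0.05, which does not show that they were unchanged. Of the tested fibroblast (7), adipocyte (4), luminal epithelial (7) and basal (5) markers, 0 had an unadjusted p under 0.05 in either direction. Of the 6 endothelial markers 2 were higher at that level (5.28% of all genes were). All 4 adipocyte markers had positive log2 fold changes (median 1.43), whereas 0 of the 5 basal markers did (median -0.72). Of the 7 luminal genes, Krt8 (97.3 to 264 CPM in older and 277 to 326 CPM in younger tumors) and Epcam (291 to 341 and 390 to 482 CPM) were lower in all older tumors. Among all genes 5.58% were lower without overlap. The other luminal genes overlapped, with log2 fold changes from -0.38 (Cdh1) to 2.27 (Csn2). In tumor 102, where Ccl6 and Ccl11 were highest, fibroblast markers summed to 1389 CPM against 139 to 1072 CPM in the others, and adipocyte markers to 279 CPM against 27.9 to 58.0 CPM. Their part in the Ccl6 and Ccl11 levels of that tumor was not tested.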

How the data were processed

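Bulk RNA-seq of 6 tumors was read from 1 table of raw read counts deposited by the authors without normalization, and 0 sample columns were left unused. The study's methods state that ribosomal RNA was depleted. Per the labels and those methods, reads were checked with FastQC 0.11.7, trimmed with Trimmomatic 0.38 and aligned with STAR 2.7.9a. They were then marked for duplicates with Picard 2.18.12 and counted with HTSeq 0.13.5 on build mRatBN7.2. The annotation, strand setting and use of marked duplicates are not given in the sources used here, nor is how reads shared by similar chemokine genes or by antisense partners were counted. The labels give reads of 100 bases and polyA RNA, whereas the protocol gives 150 bases and depletion of ribosomal RNA, so the sources differ on the library type.

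The main analysis used edgeR 4.0.16 in R 4.3.3 (filterByExpr with the age group, TMM, quasi-likelihood test, Benjamini-Hochberg adjustment over 14060 genes, threshold 0.05), with DESeq2 1.42.0 and limma 3.58.1 as alternatives. Rows without a name, 2.17% to 3.64% of the counts, were kept. SE was calculated back from the F statistic. Scripts were tested on simulated data. The members and lists were chosen with earlier results of these data known. The rule named all members, tested receptors of members (1 gene is not reported here), and other pathway genes with an unadjusted p under 0.05 or without overlap. The alternatives were other scalings, tests, filters and prior counts, and leaving out each tumor. Sequences came from RefSeq tables of GRCr8, which is not the counting build.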

Additional observations from a re-analysis of the deposited data

How the results depend on the processing

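No paired analysis was possible because older and younger tumors share no rat and no replicate number. With edgeR 0 genes and 0 members passed the adjusted threshold (1203 genes and 4 members at an unadjusted p under 0.05). Leaving out any 1 tumor kept both counts at 0, as did limma-voom, the 2 other scalings, dropping the 10 most abundant genes and requiring 10 counts per tumor. DESeq2's Wald test gave 346 genes and 4 members, and the fit without a filter (any gene with a count) gave 1 gene and 0 members. With 10 counts required per tumor, 3 members were left to test.

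The log2 fold changes kept their sign for Ccl2 (-1.48 to -0.76 with 1 tumor left out), Ccl3 (2.69 to 3.80), Ccl4 (1.90 to 3.42), Ccl5 (3.02 to 5.61) and Ccl6 (1.70 to 3.05). Ccl28 changed sign with library totals (0.043), limma-voom (0.46) and without older tumor 102 (0.11), older tumor 116 (0.10) or younger tumor 158 (1.45), in a range of -0.43 to 1.45 with 1 tumor left out. The cause was not tested. The ratios to macrophage markers kept their direction without Cd14 and Lyz2. No scaling moved the median of all genes by more than 0.07. Ccl11, Ccl19 and Ccl20 could be fitted only without the filter, where their values rest on few counts or on 1 library. Totals of 3508571 to 6525830 counts limit every gene near 3 counts.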
